A study of Mus musculus with 6 samples.

Results

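The enzymes that build cholesterol and fatty acids, and the genes that control them, were examined in plasmacytoid dendritic cells (pDCs) grown with and without tamoxifen. The members were 34 genes listed by symbol and pathway role, a list drawn up with earlier results of these data known, and each was represented by its brightest probe set among those that the platform table pairs with exactly 1 symbol. Of the 34, 33 were found, with 36 probe sets, among 21640 such probe sets for 19937 genes, out of 34760 probe sets in all. *Acat2* was not matched and is not analysed here. The 33 fall into 6 mevalonate genes (the steps up to farnesyl diphosphate), 11 late sterol genes (from squalene to cholesterol), 8 genes of SREBP control and sterol transport, and 8 fatty acid genes.

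Bone marrow of 3 C57BL/6 mice was cultured with Flt-3L at 25 ng/ml, and B220+ CD11c+ cells were sorted. Every culture, WT or KO, came from animals with the genotype *Gfi1*f/f; *Gfi1b*f/f; ERCre, in which Cre fused to a modified estrogen receptor is expressed from the *Rosa26* locus. The WT culture of each mouse had no agent and the KO culture had 1 µM of what the labels call tamoxifen and the methods 4-hydroxytamoxifen, its active metabolite, so that each group held 3 arrays (Affymetrix Mouse Gene 1.0 ST, from 200 ng of total RNA) and mice paired them. Tamoxifen, Cre activity and the loss of *Gfi1* and *Gfi1b* came together in every KO culture, and their parts cannot be told apart. Neither the labels nor the methods give the age of the mice, and genotyping PCR in the study found the deletion to be inefficient. For *Gfi1* the WT arrays of mice 1, 2 and 3 read 56.1, 47.8 and 43.3 and the KO arrays 60.5, 67.1 and 61.9, and for *Gfi1b* 179, 161 and 155 against 194, 279 and 259. Both genes were higher in every KO array than in every WT array, as 10.2% of all probe sets were. The *Gfi1* values, apart from the KO array of mouse 2, lay under 62.3. Below that level lay 95% of the probe sets for olfactory and vomeronasal receptors. Each gene has 1 probe set whose relation to the deleted exons is not known, so the loss of either gene is not checked by these values.

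Cholesterol is made from acetyl-CoA through mevalonate, isoprenoid diphosphates, squalene and a series of sterols. When sterols in the endoplasmic reticulum fall, SCAP carries the SREBP transcription factors to the Golgi, where they are cut and released to activate these genes, and INSIG proteins hold SCAP back when sterols are plentiful. SREBP-2 acts mainly on cholesterol genes and SREBP-1 mainly on fatty acid genes, while the oxysterol receptors LXR induce the efflux pumps *Abca1* and *Abcg1* as well as *Srebf1* and *Scd1*. Tamoxifen is best known as a ligand of the estrogen receptor, and the parent drug also binds EBP and DHCR7, enzymes of the late sterol pathway.

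The arrays of mouse 1 stood apart from those of mice 2 and 3 along the first principal component, which held 70.8% of the variance of all named probe sets. The pDC markers *Siglech* (2721 to 6917 over the 6 arrays) and *Bst2* (4371 to 7326) were high in every array. Macrophage markers were present too: the intensities of 11 of them summed to 7180, 32366 and 33260 in the WT arrays of mice 1, 2 and 3 and to 6232, 26430 and 29292 in the KO arrays. The corresponding sums for 10 fibroblast markers were 602, 7751 and 8400 in WT and 549, 2858 and 2963 in KO arrays, and for 9 neutrophil markers 1323, 8720 and 11328 against 516, 2520 and 4886. Of these 9, 7 had a mean log2 difference (KO minus WT) below 0. The other 2, *Mpo* (0.44) and *Elane* (0.12), had one above 0. The sums for 5 B cell markers, a cell type that shares B220 with the sorted gate, were 765, 4263 and 3947 in WT and 986, 2701 and 3010 in KO arrays. The sums for 12 pDC markers were 48714, 25502 and 20321 in WT and 45926, 33310 and 29827 in KO arrays. Defining markers of macrophages and fibroblasts were far from 0 in mice 2 and 3 (*Csf1r* at 1143 to 1811 and *Col1a1* at 243 to 638) and lower in mouse 1 (219 and 290 for *Csf1r*, 116 and 138 for *Col1a1*). In a bulk sample, fewer cells of a type and less of an RNA per cell cannot be told apart.

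**Figure D1:**
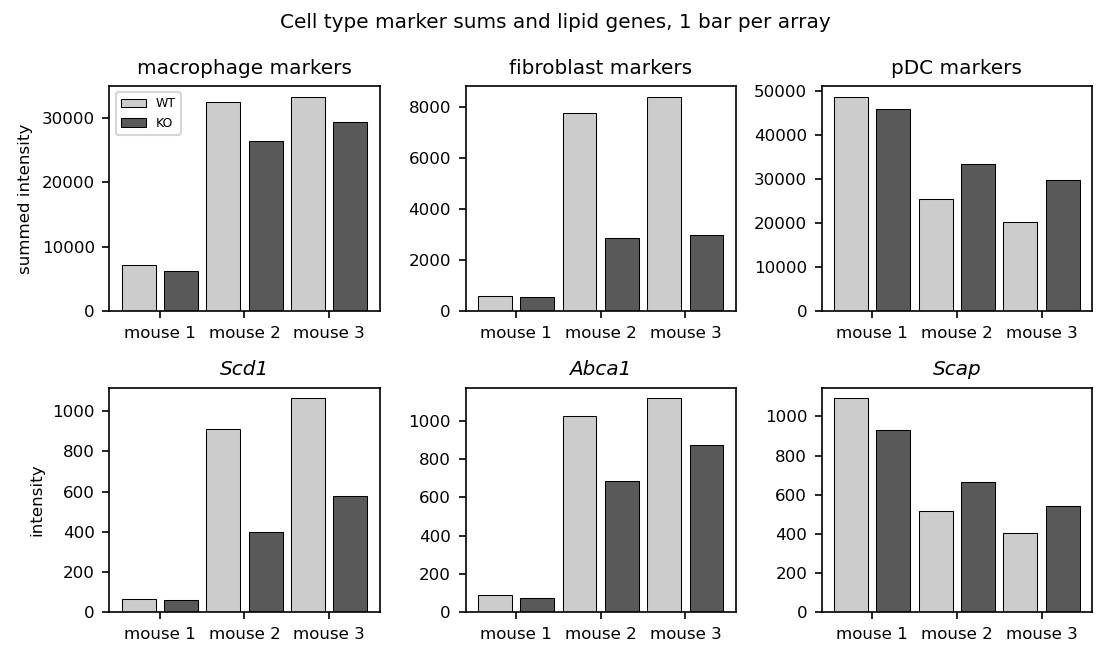
Summed array intensity of 11 macrophage, 10 fibroblast and 12 pDC marker genes (upper row) and the intensity of *Scd1*, *Abca1* and *Scap* (lower row), 1 bar per array, light for WT and dark for KO, all on linear axes from 0. *Scd1* and *Abca1* were low in both arrays of mouse 1, as were the macrophage and fibroblast sums, whereas *Scap*, like the pDC sum, was high there.

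The promoters of the sterol genes share a feature that the choice of members did not use. RefSeq promoters (GRCm38.p6, 250 bases before to 50 after each listed start) were on hand for 25 of the 33 members, in 33 windows. CCAAT, the box bound by NF-Y, a partner of SREBPs, was searched on both strands, and overlapping matches were each counted. It lay in at least 1 window of 20 of the 25 members (80%), against 41.7% of 15613 genes named on the array that have a promoter in the table. All 5 mevalonate and all 9 late sterol members with a promoter held it, as did 4 of 6 members of SREBP control and sterol transport and 2 of 5 fatty acid members, *Acly* and *Fasn*. GGGCGG, the Sp1 box, lay in 21 of the 25, against 52.9%. TCACNCCAC, a form of the sterol regulatory element, lay in 1 member, *Hmgcs1*, against 1.4% of the array's genes. Genes with several listed starts had more windows to match in, and a match is a description of the letters only.

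Promoters of 4 members are shown to set a sterol gene with many CCAAT boxes beside genes with fewer or none: *Hmgcs1* (chr13:119690101-119690400, plus strand), *Mvk* (chr5:114444019-114444318, plus strand), *Fasn* (chr11:120824498-120824797, minus strand) and *Abca1* (chr4:53159846-53160145, minus strand). Capitals mark CCAAT or its reverse complement, ATTGG, and, in *Hmgcs1*, also the match to TCACNCCAC.
Hmgcs1: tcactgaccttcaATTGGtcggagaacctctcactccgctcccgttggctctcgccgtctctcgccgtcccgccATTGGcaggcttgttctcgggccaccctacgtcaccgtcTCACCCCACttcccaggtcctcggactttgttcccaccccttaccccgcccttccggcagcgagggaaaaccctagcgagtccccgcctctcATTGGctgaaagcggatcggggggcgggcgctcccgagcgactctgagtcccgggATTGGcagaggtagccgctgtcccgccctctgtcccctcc
Mvk: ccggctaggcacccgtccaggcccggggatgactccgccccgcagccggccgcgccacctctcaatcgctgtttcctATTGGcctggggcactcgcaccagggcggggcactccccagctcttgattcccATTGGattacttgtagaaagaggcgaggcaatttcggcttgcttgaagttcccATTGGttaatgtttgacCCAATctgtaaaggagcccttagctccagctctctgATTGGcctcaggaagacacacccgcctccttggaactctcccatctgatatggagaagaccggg
Fasn: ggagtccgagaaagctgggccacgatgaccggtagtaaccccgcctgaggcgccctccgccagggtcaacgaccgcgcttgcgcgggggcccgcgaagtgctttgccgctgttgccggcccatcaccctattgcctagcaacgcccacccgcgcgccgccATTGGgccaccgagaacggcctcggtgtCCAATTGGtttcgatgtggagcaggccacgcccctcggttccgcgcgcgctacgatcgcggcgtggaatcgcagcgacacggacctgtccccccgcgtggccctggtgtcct
Abca1: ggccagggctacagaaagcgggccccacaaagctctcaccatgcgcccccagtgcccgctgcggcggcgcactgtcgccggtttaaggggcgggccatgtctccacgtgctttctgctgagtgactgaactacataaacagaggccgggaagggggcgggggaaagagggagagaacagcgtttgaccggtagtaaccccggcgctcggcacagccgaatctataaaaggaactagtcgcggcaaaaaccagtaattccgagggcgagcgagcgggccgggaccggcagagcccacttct
The windows of *Hmgcs1*, *Mvk* and *Fasn* hold 4, 5 and 3 CCAAT boxes, of which the last 2 of *Fasn* overlap, and that of *Abca1* holds none.

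No lipid synthesis gene passed the test for a difference between KO and WT pDCs. In limma on log2 intensities the smallest adjusted p of the 33 was 0.69, which was also the smallest of all probe sets, and with the mouse as a block the smallest of the 33 was 0.29. At an unadjusted p under 0.05, 0 members were higher, where 5.14% of all probe sets were, and 1 was lower, *Fads1*, where 1.9% were. Of the 10820 probe sets at or above the median level of the named probe sets, 189 were higher and 322 lower. With the mouse as a block 0 members were higher, beside 7.46% of all probe sets. That fit had 4 members lower, *Fads1*, *Scd1*, *Scd2* and *Abca1*, beside 5.99% of all probe sets. The mean log2 difference of the 33, KO minus WT, ran from -0.72 (*Scd1*) to 0.20 (*Fads2*), with a median of -0.09, and 25 lay below 0. The median of all probe sets was 0.03, but all 33 members lay above the median level of the named probe sets (83.7), and the probe sets at or above that level had a median of -0.05. Lower in all 3 mice were 12 of the 33 (36.4%), against 17.4% of all probe sets and 28.5% of those at or above the median level. Higher in all 3 mice was 1 member, *Fdps*, against 21.3% and 11.8%. The lower count became 7 when the arrays were quantile-normalized again, which moved the median of the brighter probe sets to 0.01 and their share lower in all 3 mice to 18.3%.

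**Figure D2:**
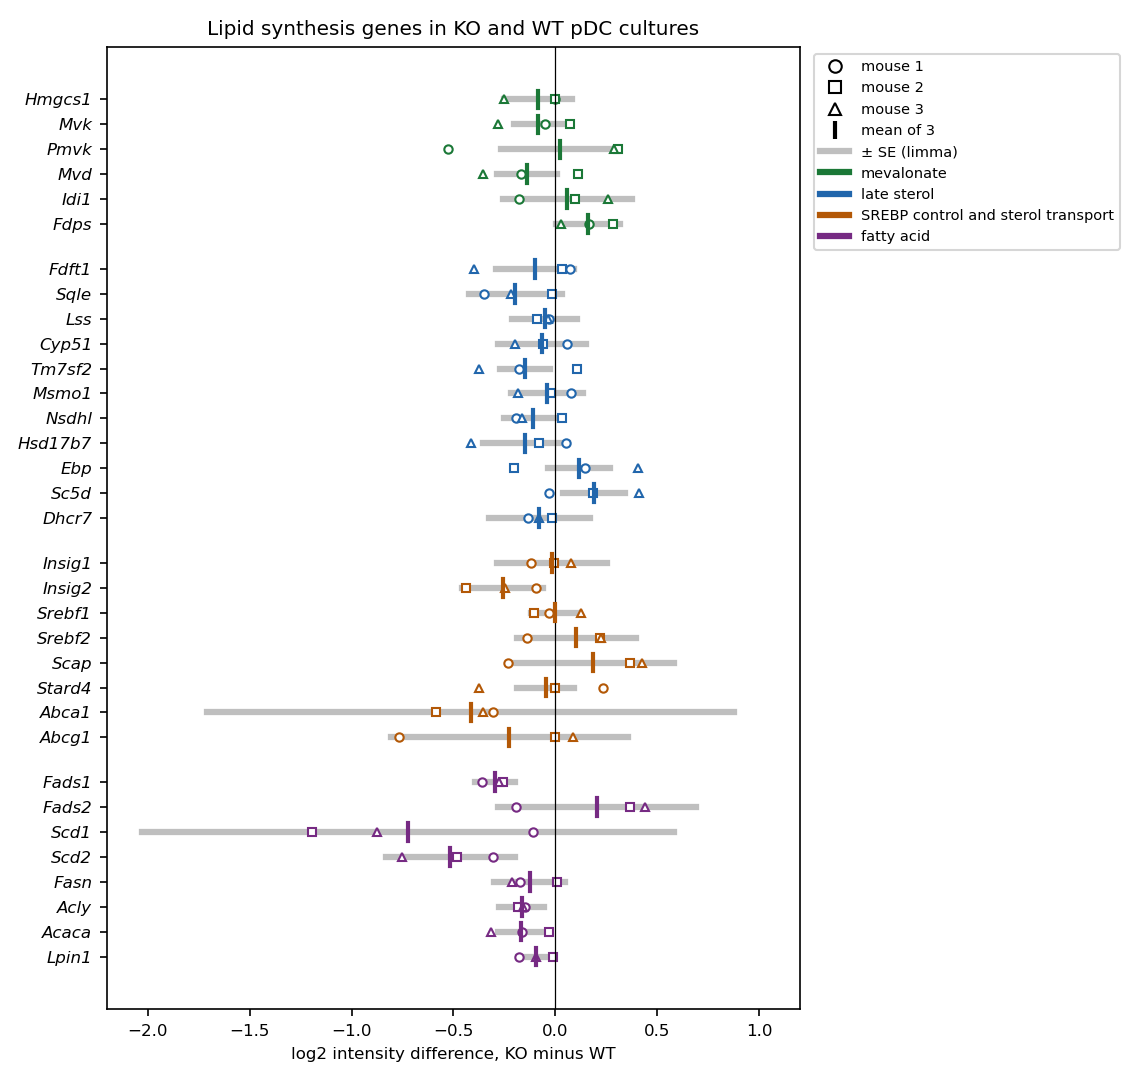
Difference in log2 intensity between the KO and WT culture of each mouse (symbols), its mean over the 3 mice (coloured bar) and the standard error from limma without the block (grey), for the 33 genes in 4 groups. The means of the mevalonate and late sterol genes run from -0.20 to 0.19, the wide errors of *Abca1* and *Scd1* come with the low values of mouse 1, and 7 of the 8 fatty acid genes have a mean below 0.

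The fatty acid genes had the lowest median log2 difference of the 4 groups, -0.17, with 6 of its 8 genes lower in each mouse, beside 17.4% of all probe sets and 28.5% of the brighter ones. After a second quantile normalization the median was -0.087 and 4 of the 8 were lower in each mouse, beside 18.3% of the brighter probe sets. The medians of the group were -0.18, -0.11 and -0.25 in mice 1, 2 and 3. *Fads1*, the delta-5 desaturase of polyunsaturated fatty acid synthesis, had intensities of 385, 357 and 333 in the WT arrays of mice 1, 2 and 3 and of 299.8, 299 and 275 in the KO arrays. Its KO arrays all lay below its WT arrays, which held for 4.65% of all probe sets and for 835 of the 10820 brighter ones. It was the only member whose groups did not overlap in that direction. In the opposite direction there was no overlap in 10.2% of all probe sets, in 413 of the 10820 brighter ones and in 0 members. The mean of *Fads1* was 359 ± 25.8 (SD, n = 3) in WT cultures and 291 ± 14.2 (SD, n = 3) in KO cultures, a fold of 0.81. Its log2 difference was -0.30 (standard error 0.10, adjusted p = 0.69 from limma, and 0.32 with the mouse as a block), and an exact two-sided permutation test gave p = 0.1, the smallest that 3 arrays against 3 allow. *Fads1* no longer had an unadjusted p under 0.05 after a second quantile normalization (log2 difference -0.21), when the WT array of mouse 1 (-0.25) or mouse 2 (-0.30) or the KO array of mouse 3 (-0.26) was dropped, or when both arrays of mouse 1 (-0.27), mouse 2 (-0.32) or mouse 3 (-0.31) were.

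*Scd1* and *Scd2* encode stearoyl-CoA desaturases, which make monounsaturated fatty acids and lie near each other on chromosome 19 (*Scd1* at 44394450 to 44407709, *Scd2* at 44293676 to 44306864, GRCm38.p6). *Scd1* had intensities of 66.0, 909 and 1063 in the WT arrays of mice 1, 2 and 3 and of 61.2, 398 and 579.7 in the KO arrays. The values of mouse 1 were close to 62.3, a mark of background below which 95% of the probe sets for olfactory and vomeronasal receptors lay. Within mice 1, 2 and 3 the log2 difference of *Scd1* was -0.11, -1.19 and -0.87. Its mean was -0.72 (standard error 1.31, and 0.20 with the block; adjusted p = 0.91 and 0.31 from limma). *Scd2* had 545, 563 and 1086 in WT and 441, 402 and 644 in KO arrays, with log2 differences of -0.31, -0.48 and -0.75 in mice 1, 2 and 3 and a mean of -0.52 (standard error 0.32, and 0.12 with the block; adjusted p = 0.74 and 0.29). Both were lower in each KO culture than in its WT partner, but the WT and KO ranges overlapped. The macrophage, fibroblast and neutrophil sums were lower in the KO than in the WT array of each mouse as well. The B cell sum was lower in mice 2 and 3 and higher in mouse 1. The part of these cell types in the *Scd1* and *Scd2* values was not tested.

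*Acly*, which cleaves citrate to cytosolic acetyl-CoA, had 326, 289.7 and 282 in WT and 294, 255 and 253 in KO arrays, and its log2 difference was nearly the same in mice 1, 2 and 3, at -0.15, -0.18 and -0.16 (mean -0.17, standard error 0.11). *Acaca*, the acetyl-CoA carboxylase that makes malonyl-CoA, was at -0.16, -0.03 and -0.32 in the 3 mice (mean -0.17). Its dimmer probe set was lower in all 3 mice too, with a mean of -0.33, but was measured near background. That probe set had 59.4, 71.3 and 84.0 in WT and 55.6, 62.4 and 52.1 in KO arrays. The WT value of mouse 1 and the KO values of mice 1 and 3 lay under the background mark of 62.3. *Lpin1*, a phosphatidate phosphatase of triglyceride synthesis, had a mean of -0.10 and was lower in all 3 mice, at -0.012 in mouse 2. *Fasn*, the fatty acid synthase, had a mean of -0.13 and was at 0.01 in mouse 2. The enzymes of the central path from citrate to palmitate thus had means between -0.17 and -0.13, each within 2 standard errors of 0.

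*Fads2*, the delta-6 desaturase, differed from *Fads1*, its neighbour on chromosome 19 (*Fads1* at 10182877 to 10196874, *Fads2* at 10062765 to 10101503). It had 1602, 571 and 527 in WT and 1400.4, 735 and 715 in KO arrays. It was therefore lower in the KO culture of mouse 1 and higher in those of mice 2 and 3, with log2 differences of -0.19, 0.37 and 0.44. Its mean was 0.20 (standard error 0.49, and 0.15 with the block; adjusted p = 0.93 and 0.54 from limma).

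**Figure D3:**
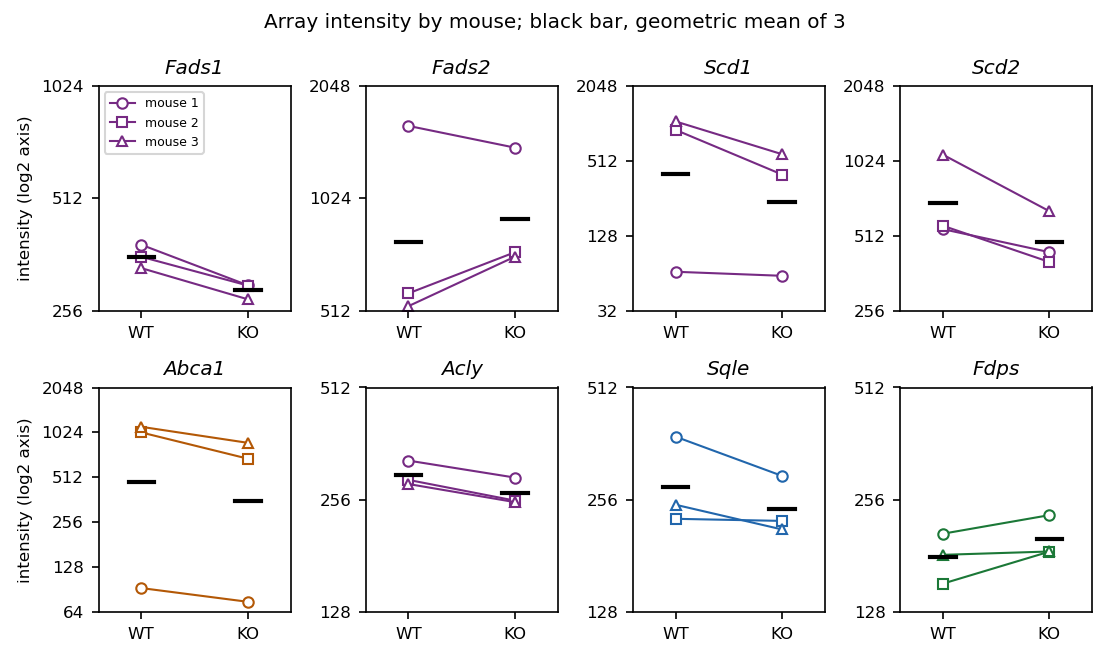
Array intensity (log2 axis, scaled for each gene) of 8 genes in WT and KO cultures, with a line joining the cultures of each mouse and a black bar at the geometric mean of 3. KO lies below WT in all 3 mice for *Fads1*, *Scd2* and *Acly*, *Fads2* is lower in KO in mouse 1 and higher in mice 2 and 3, and mouse 1 lies far below the others in *Scd1* and *Abca1*.

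The mevalonate genes had a median log2 difference of -0.03, and their means ran from -0.14 to 0.16, with 3 above and 3 below 0. *Hmgcs1*, the cytosolic HMG-CoA synthase at the start of the pathway, had intensities of 370.4, 278 and 374 in WT and 369.9, 277 and 314 in KO arrays. The arrays of mice 1 and 2 were nearly equal, with differences of -0.0019 and -0.0032 that count it among the 12 lower in all 3 mice, and the mean of -0.09 (standard error 0.17) came from mouse 3, at -0.25. *Mvk*, the mevalonate kinase, had a mean of -0.09, and *Mvd*, the decarboxylase that makes isopentenyl diphosphate, of -0.14, each with mouse 2 on the other side of 0. *Pmvk*, the phosphomevalonate kinase, had 502, 252 and 239 in WT and 349, 311 and 293 in KO arrays, with log2 differences of -0.53, 0.31 and 0.29 in mice 1, 2 and 3. *Idi1*, the isopentenyl diphosphate isomerase, had 298, 161 and 144 in WT and 264, 172 and 172 in KO arrays. Its dimmer probe set gave -0.21 where the brighter gave 0.06, so its direction depends on the probe set. *Fdps*, the farnesyl diphosphate synthase, had 208, 153 and 183 in WT and 233, 186 and 186 in KO arrays, a mean log2 difference of 0.16 (standard error 0.15, adjusted p = 0.82 from limma) with overlapping groups.

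The late sterol genes had a median log2 difference of -0.08, with 9 of 11 below 0 and 3 lower in all 3 mice. Those 3 were 27.3% of the group, beside 17.4% of all probe sets and 28.5% of the brighter ones. *Sqle*, the squalene epoxidase, a rate-limiting enzyme of the branch, had 378, 228 and 249 in WT and 297, 225 and 213 in KO arrays, and a mean of -0.20 (standard error 0.23, and 0.11 with the block; adjusted p = 0.86 and 0.45 from limma). It was the lowest of the group, and the values of mouse 2 were nearly equal, at a difference of -0.02. *Lss*, which closes the sterol rings, had a mean of -0.05 and *Dhcr7*, which makes cholesterol from 7-dehydrocholesterol, of -0.08, and both were lower in all 3 mice. *Dhcr7* had 376, 222 and 315 in WT and 342, 219 and 297 in KO arrays. *Fdft1*, the squalene synthase, had a mean of -0.10, with mouse 3 at -0.40 and the others at 0.07 and 0.03. *Cyp51*, *Msmo1* and *Nsdhl*, which remove the methyl groups of lanosterol, had means of -0.07, -0.04 and -0.11. *Tm7sf2*, a sterol C14 reductase, and *Hsd17b7*, a 3-ketosterol reductase, were both at -0.15. All 5 lay within 2 standard errors of 0, and the direction of each differed between mice.

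The remaining 2 late sterol genes had means above 0. *Ebp*, a sterol isomerase, had 283, 269 and 227 in WT and 313, 234 and 301 in KO arrays, a mean log2 difference of 0.12 (standard error 0.15, adjusted p = 0.87 from limma). It was higher in the KO cultures of mice 1 and 3 and lower in that of mouse 2. *Sc5d*, the lathosterol desaturase that acts after EBP and before DHCR7, had 404, 297 and 303 in WT and 395, 337 and 403 in KO arrays, a mean of 0.19 (standard error 0.15, adjusted p = 0.79), with mouse 1 at -0.03 and mouse 3 at 0.41.

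Of the genes of SREBP control and sterol transport, 2 of 8 were lower in all 3 mice, *Insig2* and *Abca1*, and the median log2 difference was -0.03. That count was 25% of the group, beside 17.4% of all probe sets and 28.5% of the brighter ones. *Srebf1*, which encodes SREBP-1, had 249, 217 and 212 in WT and 244, 202 and 231 in KO arrays, a difference of -0.0037 (standard error 0.12). *Insig1*, a sterol-regulated target of SREBP that also restrains it, had 817, 469.9 and 501 in WT and 752, 467 and 528 in KO arrays and a difference of -0.02 (standard error 0.27, and 0.10 with the block). For both the largest difference within a mouse was 0.12 in size on the log2 scale. *Insig2*, its paralogue, had 208, 285 and 316 in WT and 195, 210.2 and 266 in KO arrays, and a mean of -0.26 (standard error 0.20, and 0.11 with the block; adjusted p = 0.78 and 0.37 from limma). *Stard4*, a sterol carrier, had a mean of -0.05, with 0.23, -0.0018 and -0.37 in mice 1, 2 and 3.

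*Srebf2*, which encodes SREBP-2, and *Scap* differed in direction between mice. *Srebf2* had 1079, 583 and 565 in WT and 981, 678 and 661 in KO arrays, and *Scap* had 1093, 515 and 406 in WT and 931, 664 and 544 in KO arrays. Both were lower in the KO culture of mouse 1 (-0.14 and -0.23) and higher in those of mouse 2 (0.22 and 0.37) and mouse 3 (0.23 and 0.42). The same pattern of signs held for *Pmvk*, *Idi1*, *Sc5d* and *Fads2*, in all 6 of 33 members, a share near the 16.2% of all probe sets. The sum of the pDC markers also was lower in the KO than in the WT array of mouse 1 and higher in those of mice 2 and 3. Not all of the 12 markers followed it. In KO cultures 4 were higher in all 3 mice, and *Itgax*, which encodes CD11c, was lower in mice 1 and 3. The pattern of *Srebf2* and *Scap* was singled out after the values were seen, and the part of the pDC share in it was not tested.

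The efflux pumps *Abca1* and *Abcg1*, which pass cholesterol to apolipoproteins and lipoproteins, varied widely between mice, as *Scd1* did. *Abca1* had 93.1, 1025 and 1118 in WT and 75.4, 684 and 873 in KO arrays. It was lower in each KO culture, with log2 differences of -0.31, -0.58 and -0.36 and a mean of -0.42 (standard error 1.29, and 0.11 with the block; adjusted p = 0.96 and 0.30 from limma). *Abcg1* had 373, 717 and 843 in WT and 219, 716 and 896 in KO arrays, so that its mean of -0.23 (standard error 0.58) came from mouse 1, at -0.76. The 11 macrophage markers had a median log2 difference of -0.32, all with a mean below 0, and 5 were lower in all 3 mice, as *Abca1* was, while 6 differed in direction between mice. Their part in the values of *Abca1* was not tested.

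Differences between mice were larger than those between cultures for most members. In 24 of the 33 (72.7%) the range of the 3 mouse means exceeded the largest difference between KO and WT in any mouse, as it did in 40.0% of all probe sets. Both arrays of mouse 1 lay above the other 4 arrays in 17 members, beside 21.6% of all probe sets, and below them in 4, *Abca1*, *Abcg1*, *Scd1* and *Insig2*, beside 14.5%. The 17 held 7 of the 11 late sterol genes and 3 of the 6 mevalonate genes, and in neither group was any member below. Mouse 1 was set against the others because its arrays stood apart, so these values are given with no test. All 33 members lay above the median level of the named probe sets, and these shares were not counted for the brighter ones alone.

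*Scd1* lay between 398 and 1063 in mice 2 and 3, and no fold is given for it because both values of mouse 1, 66.0 and 61.2, lay near the background mark of 62.3. *Abca1* was 11.5-fold higher in the mean of mice 2 and 3 than in mouse 1 in the WT cultures and 10.3-fold higher in the KO cultures, where mouse 1 was at 75.4, not far above that mark. *Abcg1* was 2.09-fold and 3.65-fold higher there. The opposite held for *Fads2*, which was 2.92-fold higher in mouse 1 in the WT and 1.93-fold higher in the KO cultures, and for *Scap*, at 2.39-fold and 1.55-fold. *Srebf2* was 1.88-fold and 1.47-fold higher in mouse 1, *Insig1* 1.68-fold and 1.51-fold, and *Sqle* 1.59-fold and 1.35-fold. The macrophage sum was low in mouse 1 and the pDC sum high, and their part was not tested. *Lipa*, the lysosomal acid lipase that frees cholesterol from its esters, and *Nr1h3*, which encodes LXR-alpha, were singled out after their values were seen. *Lipa* had 415, 2491 and 2471 in the WT arrays of mice 1, 2 and 3, and *Nr1h3* 49.5, 226 and 166, so both followed *Abca1* in being low in mouse 1. For *Nr1h3* both values of mouse 1, 49.5 in WT and 39.8 in KO, lay under the background mark. Both arrays of mouse 1 lay below the others in 14.5% of all probe sets.

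**Figure D4:**
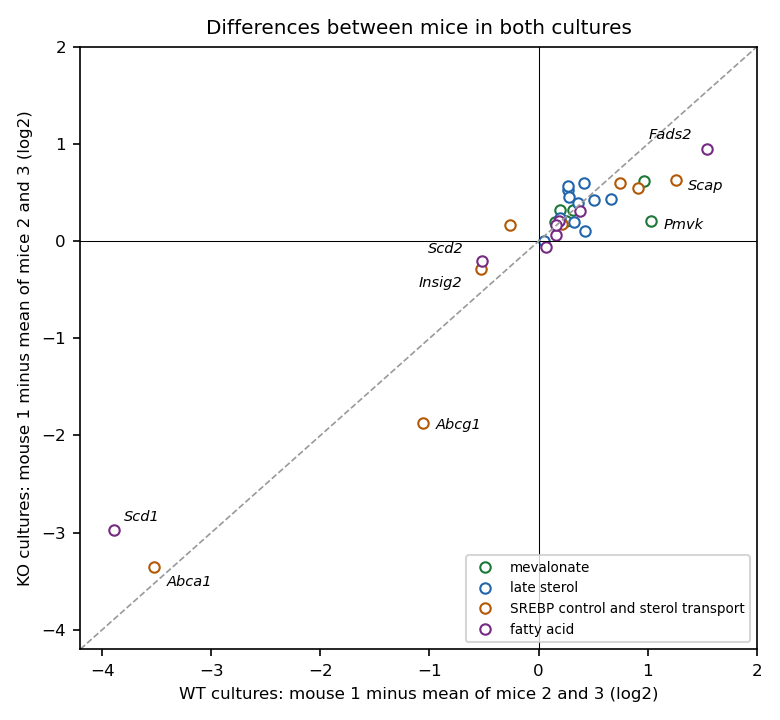
Log2 intensity of mouse 1 minus the mean of mice 2 and 3 in WT cultures (horizontal) and in KO cultures (vertical) for the 33 genes, coloured by group, with the line of equality dashed. *Scd1*, *Abca1* and *Abcg1* lie far below 0 in both cultures, while *Fads2* and *Scap* lie above 0 in both.

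Without both arrays of mouse 1, 2 members were higher at an unadjusted p under 0.05, *Fads2* (0.40) and *Pmvk* (0.30), beside 9.77% of all probe sets. In that fit 2 were lower, *Scd1* (-1.03) and *Abca1* (-0.47), beside 7.79%. None of the 33 passed an adjusted p of 0.05 there in limma, where 0.499% of all probe sets did, and the smallest of the members was 0.11, for *Scd1*. *Fads1* was then at -0.27 and no longer under the unadjusted threshold. With the mouse as a block over all 6 arrays, the 4 lower members stand beside 9.3% of the probe sets at or above the median level.

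Of 48 other genes listed for the same pathways, 39 were found, with a median log2 difference of -0.07, and 13 (33.3%) were lower in all 3 mice, beside 17.4% of all probe sets and 28.5% of the brighter ones. Higher in all 3 mice were 4, beside 21.3% and 11.8%. At an unadjusted p under 0.05 in limma, 1 was higher, beside 5.14% of all probe sets, and 0 were lower, beside 1.9%. With the block 1 was higher and 2 were lower, beside 7.46% and 5.99%, and 0 passed the adjusted p with or without the block. The gene higher in both fits was *Mlxipl*, which encodes the carbohydrate response factor ChREBP, with 60.5, 55.0 and 57.6 in WT and 71.0, 74.6 and 65.2 in KO arrays. Its WT values all lay under the background mark of 62.3, and its log2 difference of 0.28 (standard error 0.10, adjusted p = 0.69) was measured near background. The 9 genes of sterol uptake, storage and traffic had a median of -0.21, and 5 were lower in all 3 mice, beside the shares of 17.4% and 28.5% above. Of these 5, *Lipa*, *Mylip*, *Npc2* and *Osbpl8* were also lower in both arrays of mouse 1 than in the others, beside 14.5% of all probe sets. The macrophage sum was low there too, and the part of macrophages was not tested. Among the 9, *Osbp*, an oxysterol-binding protein, had 276, 244 and 249 in WT and 248, 199.9 and 192 in KO arrays. *Vldlr*, a lipoprotein receptor, had 40.7, 83.6 and 123 in WT and 45.3, 50.3 and 51.7 in KO arrays, of which all 3 KO values and the WT value of mouse 1 lay under the background mark, so that its direction in mouse 1 cannot be read. These 2 had an unadjusted p under 0.05 with the mouse as a block only, and were named for that. The 18 other fatty acid genes had a median of 0.0074, with 4 lower (22.2%) and 3 higher (16.7%) in all 3 mice. Among all probe sets 17.4% were lower and 21.3% higher, and among the brighter ones 28.5% and 11.8%.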

How the data were processed

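Total RNA of sorted pDCs, 1 WT and 1 KO culture from each of 3 mice, was hybridized to Affymetrix Mouse Gene 1.0 ST arrays. The authors deposited intensities on a linear scale, 1 value per probe set and array. The background correction, normalization and summary method are not given in the sources used here. Array medians were 69.0 to 70.5 in WT and 72.4 to 72.9 in KO arrays. Array maxima were 18270 to 19106 in WT and 16944 to 17434 in KO arrays, so the quantiles were not equal between the groups. The precision is limited by the number of arrays, which have no read depth. Intensities were log2-transformed without further normalization, and the 21640 probe sets with exactly 1 symbol (1321 have several and 11799 none) were fitted in R 4.3.3 by limma 3.58.1 (lmFit, then eBayes). Two-sided p-values were adjusted over all of these by Benjamini-Hochberg, at a threshold of 0.05. No filter on dim probe sets was applied.

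The groups were compared without a block, and with the mouse as a block as an alternative. The titles pair arrays of the same animal. Deviations from the group means of each WT array had their highest correlation with those of the same animal's KO array (r = 0.81, 0.51 and 0.67). For the WT array of mouse 2 the correlation with the KO array of mouse 3 was nearly as high (r = 0.50), and with that of mouse 1 it was -0.64. Members, gene lists and tests were chosen with earlier results of these data known. Named were all members, other pathway genes at an unadjusted p under 0.05 with 1 direction in the 3 mice, and defining markers. *Lipa*, *Nr1h3*, *Osbp*, *Vldlr*, *Mylip*, *Npc2*, *Osbpl8*, *Mpo* and *Elane* fall outside this rule and were named after their values were seen. Of 104 listed pathway and marker genes 92 were found. The fit was tested on simulated data. Figures and motif counts used Python 3.11.15. The alternatives were another scaling or normalization, a filter, a floor at the 20th percentile, averaged probe sets, a trended and robust fit, and each array or mouse left out.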

Additional observations from a re-analysis of the deposited data

How the results depend on the processing

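Under a second quantile normalization 0 members were lower at an unadjusted p under 0.05, and no share of all probe sets is given for that count. In all mice 3 members were higher and 7 lower, beside 19.1% and 18.3% of the brighter probe sets. The fatty acid median log2 difference was -0.087. With the mouse as a replicate block, which pairs the cultures, 4 members were lower at an unadjusted p under 0.05, beside 5.99% of all probe sets. No member passed the adjusted threshold in either fit. With single arrays or mice left out, 0 to 3 members were higher and 0 to 2 lower at the unadjusted threshold. The median ran from -0.15 to 0.12 for the mevalonate genes and from -0.19 to 0.052 for the late sterol genes, both highest without the WT array of mouse 1. With a mouse left out, 2 to 7 members were higher in all remaining mice, the 7 without mouse 1. Agreement is easier among fewer mice, and the matching counts of lower members are not given. For the leave-out counts, shares of all probe sets are given above only for the p-values without mouse 1. *Fads1* was below 0 under every setting run, from -0.35 to -0.21. *Abca1* was above 0 without the KO array of mouse 1 (0.70) or the WT array of mouse 2 (0.14) or 3 (0.20), and *Scd1* was above 0 when that KO array was dropped (0.27). Such settings, with a single array of a mouse dropped, put differences between mice into the group difference. Median centring, the floor, the filter on dim probe sets, averaged probe sets and the trended robust fit kept each count of members within 1.5 times. In mouse 1 the signal of *Scd1* was close to that of the receptor genes, which limits its difference there.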
